A study of Mus musculus with 20 samples.

Results

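The comparison described here set 5 hemi-brain libraries labelled APOE4D against 5 labelled APOE3, 10 of the 20 libraries in the series, and the libraries were assigned to groups by their labels alone. All 20 mice were female, 18 months of age (MO), on a C57Bl/6 background, and homozygous for a human APOE allele that replaces mouse Apoe under the endogenous murine promoter. The 5 APOE4D mice (F12M, F19M, FH51, FH68 and FH85) carry the genotype APOE4 in the labels, and neither the labels nor the methods of the study say what the D stands for or how these mice differ from the 5 mice of the APOE4 group (F58M, F78N, F95K, FH66 and FH78). The other groups were APOE2 (F35J, F42N, F74M, FH111 and FH124) and APOE3 (F10N, F37N, F39N, F61N and F64M). RNA of the left hemi-brain of each mouse was read as 1 library, and libraries of a group therefore differ as mice differ. The question was which genes differ between these APOE4D mice, whose results the study does not describe, and APOE3 mice of the same age.

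APOE is a secreted apolipoprotein that carries cholesterol and other lipids between brain cells, made mainly by astrocytes and taken up through receptors of the LDL receptor family. Of its human alleles, APOE3 is regarded as neutral, while carriers of APOE4 develop Alzheimer's disease more often and earlier. In targeted replacement mice the rest of the genome is that of the mouse, so a comparison of genotypes measures how the mouse transcriptome differs under each human allele together with any other difference between the lines.

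The APOE4D libraries held 32404258 to 37947330 assigned reads and the APOE3 libraries 43051666 to 51960932, so the depths of the groups did not overlap. With every library thinned to 1 total, 1727 genes passed the test described below, against 1769 at full depth. Over all 20 libraries the defining markers of cortex and hippocampus (Slc17a7, 32546 to 59717 reads), striatum (Drd1, 1143 to 1878 reads), thalamus (Prkcd, 2069 to 4151 reads) and microglia (Tmem119, 950 to 1670 reads) were present, while those of cerebellum were at or near 0 (Gabra6 0 to 7 reads and Pcp2 0 to 12 reads). One APOE3 library stood apart from its label: F61N had 48 reads of Xist, a noncoding RNA made from the silenced X chromosome of female cells, and the other 19 libraries had 12151 to 24959. The 4 Y-linked genes counted had 0 to 6 reads in any library. F61N was kept, and values without it are given where they differ.

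Of 21041 genes tested, 1769 (8.41%) differed between APOE4D and APOE3 at an adjusted p under 0.05 in edgeR's quasi-likelihood test, 825 of them higher in APOE4D (3.92%) and 944 lower (4.49%). Most differences were small, with a median absolute log2 fold change of 0.224 among the genes past the threshold. A fold of at least 1.5 was reached by 192 genes (0.913%), 86 higher and 106 lower in APOE4D, and 137 of the 192 had a mean expression under 1 on the log2 scale of CPM (counts scaled to the size of the library). For 1285 genes (6.11%) the CPM of all 5 APOE4D mice lay on 1 side of those of all 5 APOE3 mice, with 582 higher and 703 lower in APOE4D, and 895 of these also passed the test. The number of calls rested strongly on single libraries. Without F61N 3338 genes passed, and without F12M, F10N or F39N 1022, 1053 or 1088 passed. The spread of fold changes over expression is plotted for all genes tested.

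**Figure D1:**
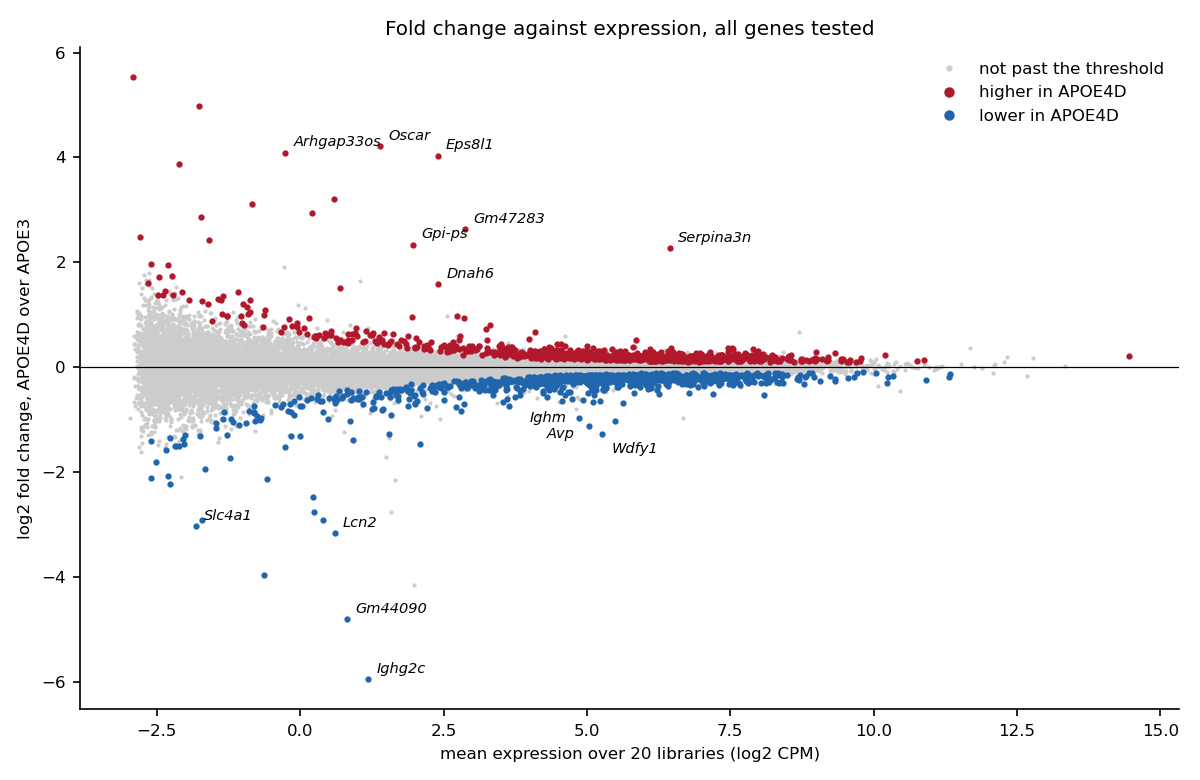
Log2 fold change of APOE4D over APOE3 (vertical axis) against mean log2 CPM over 20 libraries (horizontal axis) for the 21041 genes tested, with genes higher in APOE4D in red, genes lower in blue and genes not past the threshold in grey. Most of the 1769 colored genes lie close to 0 (median absolute log2 fold change 0.224), and Oscar, Eps8l1, Serpina3n, Gm44090 and Ighg2c stand far from the rest.

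Serpina3n encodes a secreted serine protease inhibitor that reactive astrocytes express strongly, and it lies on chromosome 12 from 104406646 to 104414334 of GRCm38. It was at 129.5, 115.4, 130.3, 135.5 and 134.1 CPM in the 5 APOE4D mice, against 26.5, 33.4, 22.8, 21.1 and 29.8 CPM in the 5 APOE3 mice. Each APOE4D mouse was thus far above each APOE3 mouse. The log2 fold change was 2.27 with a standard error of 0.30 (edgeR's quasi-likelihood test, adjusted p = 0.000187). An exact permutation test of the same 10 libraries (two-sided) gave p = 0.00794, the smallest that 5 against 5 allows. Any gene whose groups do not overlap gets this value, and Serpina3n was named among such genes, so it adds nothing to the separation. The APOE4 mice were at 130.2 ± 4.02 CPM (SD, n = 5) and the APOE2 mice fell into separate levels, with F42N and FH124 at 26.1 and 27.3 CPM and F35J, F74M and FH111 at 84.4, 94.2 and 82.9 CPM. The neighboring family members Serpina3c and Serpina3m, chosen after their values were seen, had few reads and log2 fold changes of 2.86 and 4.97 (adjusted p = 0.00141 and 2.41e-05). These inhibitors are near-identical copies of one another, so how reads were split among them is uncertain.

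Serpina3n was the 1 higher gene of the 20 measured in the reactive astrocyte list, and 2 were lower. Lcn2, a secreted iron-siderophore carrier, was at 0.220 to 0.362 CPM in APOE4D, against 0.306 to 4.59 CPM in APOE3 (log2 fold change -3.17, adjusted p = 0.0295), and Vim, an intermediate filament, was lower by a log2 fold change of -0.35 (adjusted p = 0.0475). Both calls were lost without F10N, without F37N and in other fits. Gfap, the intermediate filament of astrocytes, had a log2 fold change of -0.24 and did not pass the test (adjusted p = 0.0921). Of 15 astrocyte markers 1 passed (6.67%), the neurotensin receptor Ntsr2 (log2 fold change -0.21, adjusted p = 0.0015, 129 to 137 CPM in APOE4D against 151 to 163 CPM in APOE3).

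Oscar encodes an immunoglobulin-like receptor for collagen found on myeloid cells, on chromosome 7 from 3609813 to 3616157. It was at 4.04, 3.73, 3.81, 4.54 and 3.03 CPM in APOE4D, against 0.125, 0.0902, 0.210, 0.141 and 0.432 CPM in APOE3. All 5 APOE3 mice were near the floor of detection, with 4 to 21 reads each, and the log2 fold change was 4.22 ± 0.22 SE (adjusted p = 2.28e-14). APOE2 mice, at 3.28 CPM on average, lay beside the APOE4D mice rather than the APOE3 mice (adjusted p = 0.537 for APOE4D against APOE2). Pirb, a myeloid inhibitory receptor of the same stretch of chromosome 7 chosen after its values were seen, differed in the other direction (log2 fold change -1.32, adjusted p = 0.000108).

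Aim2, a cytosolic sensor of double-stranded DNA that forms an inflammasome, lies on chromosome 1 from 173349547 to 173466040. It was at 5.76, 4.67, 4.82, 6.43 and 5.94 CPM in APOE4D, against 3.07, 3.45, 2.56, 2.68 and 2.55 CPM in APOE3, with no overlap and a log2 fold change of 0.95 ± 0.11 SE (adjusted p = 6.05e-07). Of the 8 measured AIM2-like DNA sensors on chromosome 1, Aim2 and a further gene, Ifi208, were past the threshold (25.0%, beside 8.41% of all genes). Ifi208 had 3 to 6 reads in each APOE4D library and 0 in each APOE3 library. The log2 fold changes of 5 of the 8 sensors were below 0 and 3 were above. Their median was -0.136, and 0.202 without F10N and F37N. The 37 measured genes of the type I interferon response held none past the threshold, and their smallest p was that of Oas2 (log2 fold change -0.59, adjusted p = 0.124). Aim2 overlaps Cadm3 in the annotation, and the sources used here do not give whether the counting used strand, so reads of overlapping genes cannot be told apart.

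Immunoglobulin heavy chain genes of chromosome 12 were lower in APOE4D. Ighg2c, the constant region of immunoglobulin G2c, had 2, 0, 5, 4 and 2 reads in the 5 APOE4D mice (0 to 0.158 CPM), against 244, 215, 250, 166 and 270 reads in the 5 APOE3 mice (3.90 to 5.56 CPM). The log2 fold change was -5.95 ± 0.42 SE (adjusted p = 1.27e-08), the largest of either sign among the genes of the naming rule, which averaged a log2 CPM of 1 or more. The APOE4 mice held 0 to 7 reads and the APOE2 mice 80 to 236, so the 10 mice of the APOE4D and APOE4 groups were all below the 10 mice of the APOE2 and APOE3 groups. Ighm, the constant region of immunoglobulin M, was at 20.8, 19.6, 20.9, 21.6 and 22.1 CPM in APOE4D, against 67.5, 31.5, 37.3, 33.0 and 35.9 CPM in APOE3. The groups did not overlap although F10N was far above the other APOE3 mice (log2 fold change -0.97 ± 0.18 SE, adjusted p = 0.00335).

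Other genes of B cells and plasma cells were less clear. The light chain Igkc was at 0.378 to 1.15 CPM in APOE4D, against 0.844 to 19.9 CPM in APOE3, with the highest value in F10N, and it did not pass the test (log2 fold change -2.76, adjusted p = 0.0975). Cd79a and Cd79b, the signaling chains of the B cell receptor, had log2 fold changes of -0.46 and -0.32 and did not pass (adjusted p = 0.435 and 0.599). Igkc, Cd79a and Cd79b were chosen after their values were seen.

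**Figure D2:**
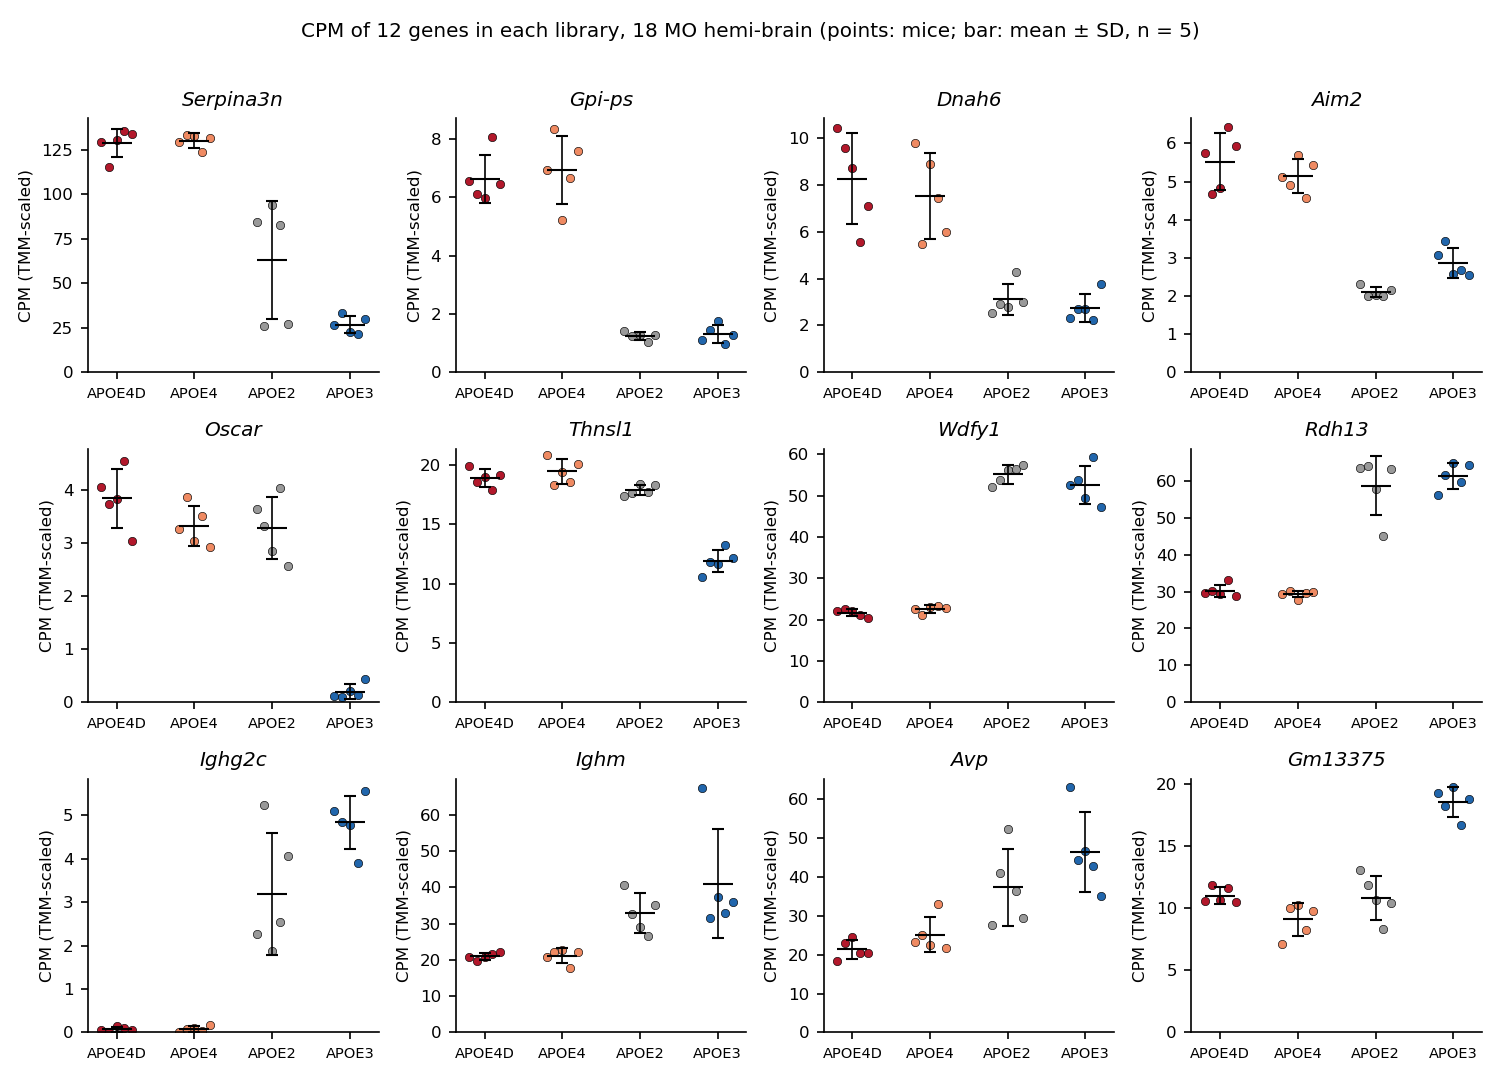
CPM scaled by TMM (vertical axes) of 12 genes in each of the 20 libraries, by group, with a point for each mouse and bars for the mean ± SD (n = 5). Wdfy1 lies at 20.5 to 22.5 CPM in APOE4D and 47.3 to 59.4 CPM in APOE3 with APOE4 beside APOE4D and APOE2 beside APOE3, while for Oscar, Thnsl1 and Gm13375 the APOE2 mice lie beside the APOE4D mice.

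The smallest p of all genes belonged to Wdfy1, which encodes a FYVE domain protein that binds phosphoinositides on early endosomes and lies on chromosome 1 from 79702262 to 79776143. It was at 22.1, 22.5, 22.1, 21.1 and 20.5 CPM in APOE4D, against 52.6, 53.7, 49.5, 59.4 and 47.3 CPM in APOE3. Its spread within either group was small beside the gap between them. Its log2 fold change was -1.28 with a standard error of 0.05 (edgeR's quasi-likelihood test, adjusted p = 2.17e-17). The exact permutation test gave p = 0.00794, as it does for any gene whose groups do not overlap. APOE4 mice averaged 22.6 CPM and APOE2 mice 55.1 CPM, and APOE4D against APOE2 was past the threshold as well (adjusted p = 4.76e-18). Of 53 measured genes of endosome sorting, retromer and exosome biogenesis 3 passed (5.66%, beside 8.41% of all genes). Higher were the exosome GTPase Rab27b (log2 fold change 0.24) and the retromer subunit Vps35 (0.13), and lower was the recycling GTPase Rab4a (-0.17). With the trend over length and GC content removed none of the 3 passed, and the call of Vps35 was lost under 16 of 23 settings. The 23 settings, here and below, hold the fit without F61N in duplicate. Rab4a was at 41.0 to 44.9 CPM in APOE4D, against 46.8 to 49.6 CPM in APOE3.

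Rdh13, a retinol dehydrogenase of mitochondria on chromosome 7 from 4425665 to 4471280, was at 29.5, 30.02, 29.3, 33.1 and 28.8 CPM in APOE4D, against 56.1, 61.5, 64.8, 59.6 and 64.2 CPM in APOE3 (log2 fold change -1.02 ± 0.07 SE, adjusted p = 4.5e-10). It overlaps Eps8l1, an EPS8-like protein of the actin cytoskeleton, which moved the other way (log2 fold change 4.03, adjusted p = 0.000998). Eps8l1 was at 13.8, 11.6, 10.5 and 18.2 CPM in 4 APOE4D mice and at 1.29 CPM in FH51, against 0.480 to 0.893 CPM in APOE3. Dctd, the deoxycytidylate deaminase that supplies precursors of thymidine nucleotides, was at 4.97 to 6.32 CPM in APOE4D, against 8.18 to 10.4 CPM in APOE3 (log2 fold change -0.71). Thnsl1, a threonine synthase-like protein, was at 17.9 to 19.9 CPM in APOE4D, against 10.6 to 13.2 CPM in APOE3 (log2 fold change 0.67, adjusted p = 1.51e-09), and APOE2 averaged 17.9 CPM, which did not differ from APOE4D past the threshold (adjusted p = 0.543).

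Dnah6, a heavy chain of the dynein arms that drive motile cilia, was at 10.4, 9.58, 8.73, 5.55 and 7.09 CPM in APOE4D, against 2.32, 2.71, 2.72, 2.21 and 3.75 CPM in APOE3. The groups did not overlap and the log2 fold change was 1.59 ± 0.20 SE (adjusted p = 4.52e-05). It was the sole gene past the threshold among 24 measured genes of ependyma and motile cilia (4.17%, beside 8.41% of all genes). Their median log2 fold change was 0.0191, beside -4.31e-05 over all genes. Tmem72, a membrane protein of choroid plexus, was at 8.51 to 11.2 CPM in APOE4D, against 4.02 to 5.50 CPM in APOE3 (log2 fold change 0.94, adjusted p = 2.95e-05). It was the sole gene past the threshold of 15 choroid plexus markers (6.67%). Ttr, the choroid plexus carrier of thyroxine, was at 646.8 to 910.9 CPM in APOE4D, against 672.3 to 926.2 CPM in APOE3, and did not pass (adjusted p = 0.824). Anxa4, an annexin that binds membranes with calcium, was at 11.8 to 13.9 CPM in APOE4D, against 6.11 to 8.61 CPM in APOE3 (log2 fold change 0.80, adjusted p = 1.17e-07).

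Avp, which encodes the hypothalamic hormone vasopressin, was at 18.3, 23.04, 24.6, 20.4 and 20.3 CPM in APOE4D, against 63.0, 44.4, 46.8, 42.9 and 35.1 CPM in APOE3. The groups were separate, and the log2 fold change was -1.12 ± 0.19 SE (adjusted p = 0.00126). Oxt, the oxytocin gene beside it on chromosome 2, chosen after its values were seen, averaged 20.8 ± 2.27 CPM in APOE4D and 29.2 ± 3.96 CPM in APOE3 (SD, n = 5 each) and did not pass the test (log2 fold change -0.49, adjusted p = 0.105). Avp was the sole gene past the threshold of 19 measured markers of thalamus, hypothalamus and midbrain (5.26%, beside 8.41% of all genes). The pituitary hormone genes Gh and Prl, which an edge of the dissection can carry, ranged over 0 to 601 and 0 to 1163 reads among the 20 libraries. In hemi-brain RNA, fewer cells of a type and less RNA per cell cannot be told apart.

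Several of the largest differences were in transcripts with no known role. Gpi-ps, a pseudogene of glucose phosphate isomerase on chromosome 8 from 5639506 to 5641208, was at 5.99 to 8.05 CPM in APOE4D, against 0.964 to 1.76 CPM in APOE3 (log2 fold change 2.33, adjusted p = 2.55e-13). Its parent gene Gpi1 was at 551.9 ± 14.9 CPM in APOE4D and 559.4 ± 41.1 CPM in APOE3 (SD, n = 5 each, adjusted p = 0.826), and reads that fit both copies make the assignment uncertain. Gm44090 had 3 to 5 reads in each APOE4D mouse, against 119 to 233 in each APOE3 mouse (log2 fold change -4.81, adjusted p = 9.12e-16). Arhgap33os, a transcript of chromosome 7 from 30515122 to 30522193, had 49 to 74 reads in each APOE4D mouse, against 3 to 6 in each APOE3 mouse (log2 fold change 4.09, adjusted p = 1.34e-13). The long noncoding RNA Gm13375 was at 10.5 to 11.9 CPM in APOE4D, against 16.7 to 19.8 CPM in APOE3 (log2 fold change -0.75, adjusted p = 7.95e-06), with APOE2 at 10.9 CPM on average.

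The remaining large differences were in genes of low expression. Gm47283, Tmc4 (a TMC family membrane protein) and Tnnt1 (troponin T of slow muscle) were higher in APOE4D, with log2 fold changes of 2.63, 0.97 and 0.73. Gm13306, Dmkn and Sbsn (secreted proteins of the epidermis), Sbk3 (a protein kinase) and Wnt5b (a Wnt ligand) were lower, with log2 fold changes of -1.47, -1.27, -0.76, -0.91 and -0.78. Of the 24 genes that were largest by the naming rule, 19 stayed past the threshold under each of 23 other settings of the analysis. The other 5, Gm47283, Gm13306, Avp, Ighm and Wnt5b, lost the call with the FH mice left out. Gm47283 also lost it with only APOE4D and APOE3 fitted and with the series of the mouse IDs as a covariate. All 24 kept their sign in each setting.

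The genes with large differences were not spread evenly along the genome. Of the tested genes with a known position, 155 of 18992 (0.816%) passed the threshold with a fold of 1.5, while on chromosomes 6, 7, 12 and 17 the shares were 2.12%, 2.06%, 1.85% and 1.62% (20, 30, 13 and 15 genes), and on chromosome 19 none passed. Within windows of 2 Mb, 6 such genes lay on chromosome 7 between 4000001 and 6000000 (Rdh13, Eps8l1, Tnnt1, Ptprh, Sbk3 and Gm15510), 6 between 30000001 and 32000000 (Arhgap33os, Haus5, Atp4a, Sbsn, Dmkn and Gm10640) and 5 between 2000001 and 4000000 (Oscar, Tmc4, Pirb, Gm3375 and 3300002P13Rik). In each of these windows genes of both directions stood side by side. Ptprh, a receptor tyrosine phosphatase of the first window named after its values were seen, was at 2.63 to 3.11 CPM in APOE4D, against 0.141 to 0.478 CPM in APOE3 (log2 fold change 3.21). Other windows with 3 such genes held the Serpina3 family (chromosome 12), the immunoglobulin heavy chain (chromosome 12), the histocompatibility genes H2-Ab1, H2-Eb1 and H2-Q6 (chromosome 17) and leukocyte genes that include Spn and Itgal (chromosome 7).

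**Figure D3:**
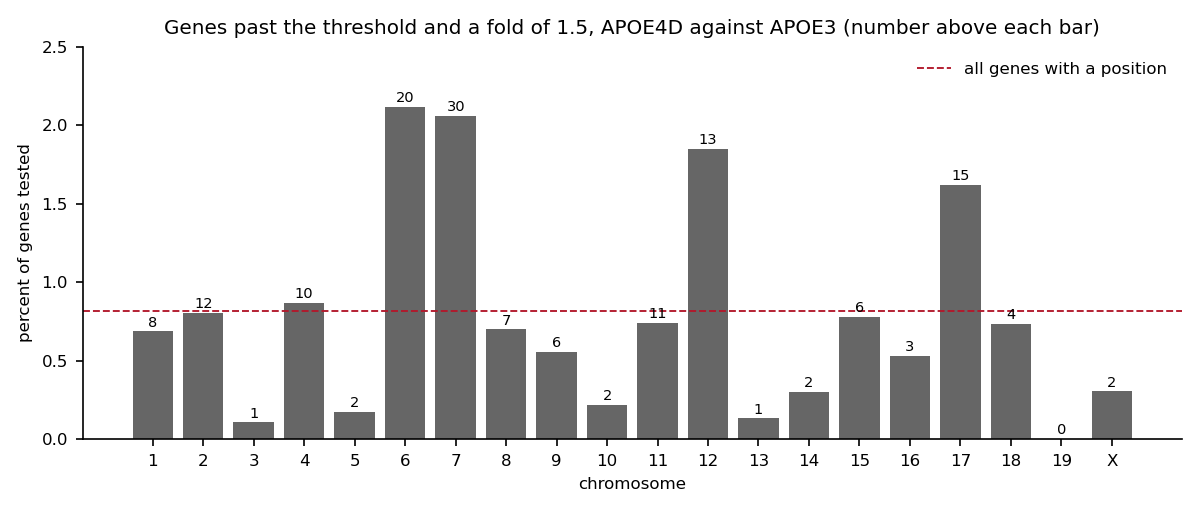
Share of tested genes on each chromosome (horizontal axis) that passed the threshold with a fold of 1.5 in APOE4D against APOE3 (vertical axis, percent), with the number of genes above each bar and the share over all genes with a position (0.816%) as a dashed line. Chromosomes 6, 7, 12 and 17 stand above the line at 1.62% to 2.12%.

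Mouse Apoe is itself on chromosome 7, from 19696244 to 19701310, and reads were assigned to it in every library although human APOE replaces it in these mice. It was at 37.04, 36.7, 42.6, 42.1 and 39.6 CPM in APOE4D, against 46.8, 42.5, 45.5, 40.01 and 42.2 CPM in APOE3. The groups overlapped, and neither edgeR's quasi-likelihood test (log2 fold change -0.13, adjusted p = 0.138) nor the exact permutation test (p = 0.0714, two-sided, 0.0857 adjusted over 6 genes) was past the threshold, although the call was made without F61N (log2 fold change -0.16). Its neighbors Apoc1, another apolipoprotein, and Tomm40, the pore of the mitochondrial import machinery, had log2 fold changes of -0.13 and -0.11 (adjusted p = 0.649 and 0.0701). Among 67 measured genes that flank Apoe, 13 were lower in APOE4D and none was higher (19.4% called), with a median log2 fold change of -0.13. Examples were the clathrin adaptor subunit Ap2s1 (-0.24), the homeobox genes Meis3 (-0.19) and Six5 (-0.45), and the NF-kB subunit Relb (-0.38). Their number was 22 without F61N, 5 without F39N, 3 without F10N, 3 once the trend with transcript length and GC content was removed, 2 with 1 surrogate variable and 0 without the FH mice.

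The group of genes with the most calls was that of the nuclear subunits of the respiratory chain and ATP synthase, the inner-membrane complexes that make most of the ATP of neurons. Of 77 measured, 40 were lower in APOE4D, 3 were higher and 34 did not pass, a share of 55.8% called beside 8.41% of all genes, and the median log2 fold change was -0.154. Cytosolic ribosomal proteins followed, with 35 of 80 lower, none higher and a median of -0.164 (43.8% called). The 3 higher genes were Ndufs1 of complex I (log2 fold change 0.13), Sdha of complex II (0.09) and Atp5a1 of ATP synthase (0.10), and no gene of the list was higher with 1 surrogate variable or without F10N and F37N. The 10 measured mRNAs of the mitochondrial genome held 1 higher gene, mt-Co1 (0.21), and none lower, a share of 10.0% near that of all genes. The groups overlapped at mt-Co1, with 22960 to 25380 CPM in APOE4D against 19190 to 24890 CPM in APOE3. Its call was lost under 10 of 23 settings.

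Promoters of both groups often carry recognition motifs of ETS family factors such as GABP. For each RefSeq gene (GRCm38.p6), the 250 bases before the start that the promoter table gives were searched on both strands for CCGGAAG, a core of the ETS motif. CCGGAAG was held by 7.83% of the 27025 genes with a promoter in the table, by 12 of 65 respiratory chain genes (18.5%) and by 18 of 59 ribosomal protein genes (30.5%). Within the respiratory chain list it was held by 8 of the 33 matched genes that were lower in APOE4D and by 4 of the 32 that were not, and within the ribosomal list by 9 of 24 lower and 9 of 35 others. The promoters below are those of the 2 genes of each list with the smallest p whose promoter held the motif, shown 5′ to 3′ on the strand of the gene with the motif in capitals (CTTCCGG is CCGGAAG on the other strand). They run, in the order of the lines, over chr4:40279422-40279671 on the minus strand, chr5:115348959-115349208 on the minus strand, chr17:24719813-24720062 on the plus strand and chr2:39005132-39005381 on the minus strand. The start used for Rps2 lies inside the span of the gene, which runs from 24718121 to 24721927. A match is a description of the letters and not a site shown to be bound.
Ndufb6: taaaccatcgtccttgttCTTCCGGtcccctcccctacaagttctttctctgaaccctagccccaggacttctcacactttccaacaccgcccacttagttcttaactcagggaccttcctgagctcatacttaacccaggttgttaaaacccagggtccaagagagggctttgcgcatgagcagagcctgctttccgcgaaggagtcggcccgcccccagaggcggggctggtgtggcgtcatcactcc
Cox6a1: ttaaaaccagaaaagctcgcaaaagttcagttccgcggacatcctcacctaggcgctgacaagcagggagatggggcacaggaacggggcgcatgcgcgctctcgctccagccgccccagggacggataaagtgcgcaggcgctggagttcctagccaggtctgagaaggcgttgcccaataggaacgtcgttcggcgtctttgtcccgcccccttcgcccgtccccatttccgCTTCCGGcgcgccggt
Rps2: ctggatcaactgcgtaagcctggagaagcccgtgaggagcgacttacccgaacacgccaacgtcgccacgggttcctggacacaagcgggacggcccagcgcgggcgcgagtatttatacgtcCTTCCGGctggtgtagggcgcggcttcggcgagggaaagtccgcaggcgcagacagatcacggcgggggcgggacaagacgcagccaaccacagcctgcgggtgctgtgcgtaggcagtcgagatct
Rpl35: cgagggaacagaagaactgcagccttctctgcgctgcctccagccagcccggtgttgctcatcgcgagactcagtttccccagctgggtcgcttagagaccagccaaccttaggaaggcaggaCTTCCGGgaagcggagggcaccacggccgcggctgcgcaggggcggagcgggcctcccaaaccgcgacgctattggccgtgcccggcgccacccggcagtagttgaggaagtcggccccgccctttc

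Among these genes Ndufb6, a complex I subunit, was at 59.99, 66.9, 66.5, 68.1 and 65.0 CPM in APOE4D, against 83.5, 75.6, 84.2, 78.8 and 78.02 CPM in APOE3 (log2 fold change -0.29 ± 0.04 SE, adjusted p = 1.31e-05). The groups did not overlap. Cox6a1, which belongs to cytochrome c oxidase, was at 288.3, 293.4, 328.9, 318.3 and 319.1 CPM in APOE4D, against 401.4, 376.3, 414.5, 359.8 and 350.9 CPM in APOE3 (log2 fold change -0.30, adjusted p = 8.89e-05). Of the whole list Atp5j2, a membrane subunit of ATP synthase, had the smallest p, with 128.2 to 149.4 CPM in APOE4D, against 167.6 to 200.4 CPM in APOE3 (log2 fold change -0.35, adjusted p = 5.21e-06). Rps2, of the small ribosomal subunit, was at 240.7, 221.7, 252.2, 261.2 and 254.7 CPM in APOE4D, against 328.0, 277.4, 317.3, 295.4 and 295.5 CPM in APOE3 (log2 fold change -0.30, adjusted p = 5.04e-05). Rpl35, of the large subunit, was at 59.3 to 70.2 CPM in APOE4D, against 76.2 to 88.1 CPM in APOE3 (log2 fold change -0.29, adjusted p = 7.7e-05).

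Both groups of genes are short, and fold changes in this comparison moved with transcript length. In 5 classes of tested genes of equal size by length, the median log2 fold change was -0.0506, -0.0422, -0.0131, 0.00882 and 0.0562 from the shortest to the longest, and 269 genes of the shortest class were lower and 55 higher, beside 67 lower and 385 higher in the longest. With the trend over length and GC content removed, 23 respiratory chain genes and 20 ribosomal protein genes were lower and 6 and 0 were higher, and the medians were -0.0891 and -0.0818. The part of RNA quality or library preparation in this trend was not tested. The counts of lower genes were 23 and 23 without F12M, the APOE4D mouse with the lowest values of both lists, and 22 and 20 without the FH mice. With 1 surrogate variable in the fit they were 15 and 12.

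**Figure D4:**
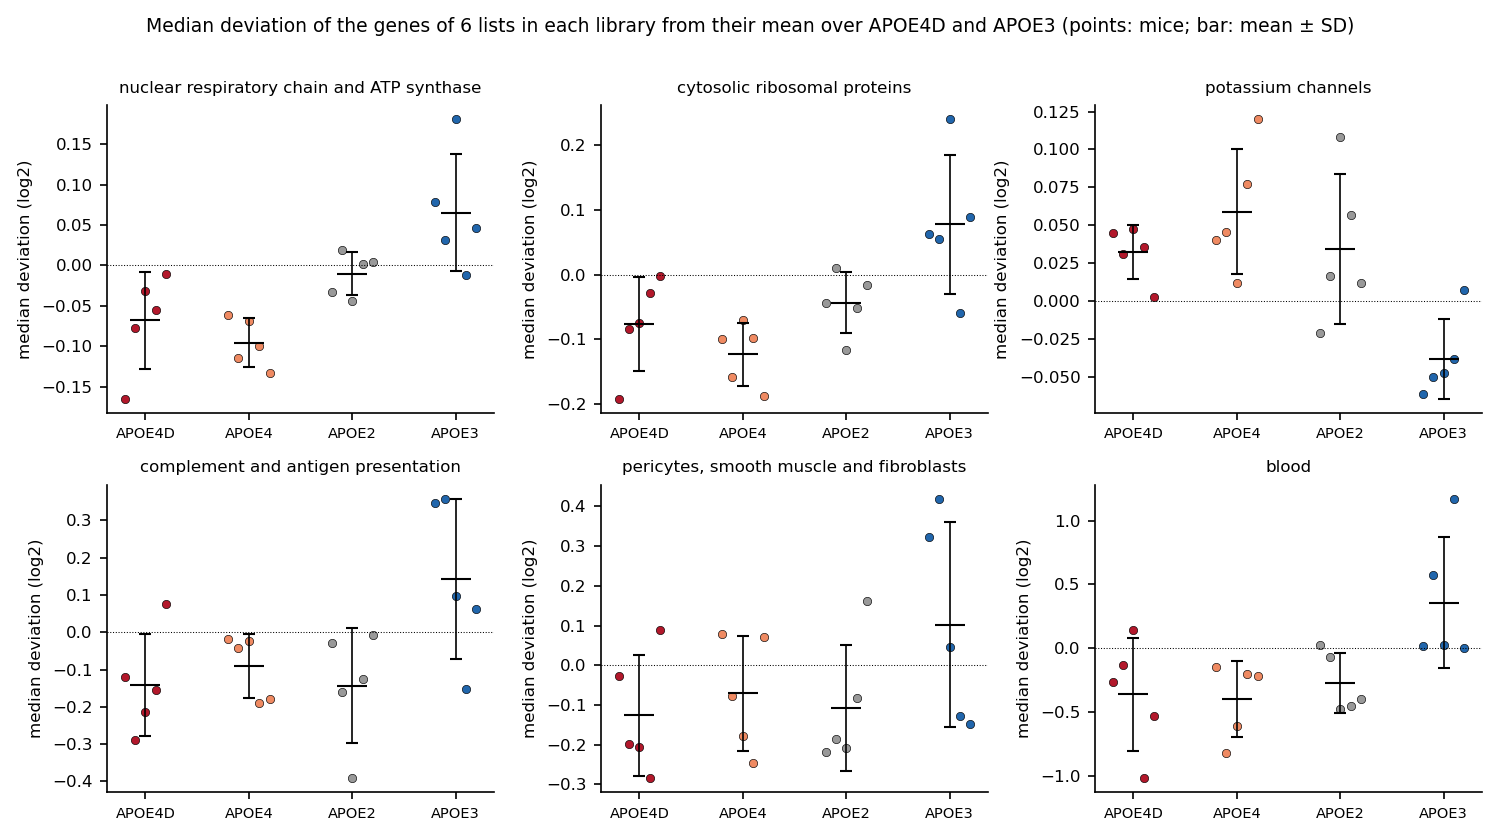
Median deviation of the genes of 6 lists in each library from their mean over the APOE4D and APOE3 libraries (vertical axes, log2), by group, with a point for each mouse and bars for the mean ± SD (n = 5). For the respiratory chain the APOE4D mice lie between -0.165 and -0.0101 and the APOE3 mice between -0.0118 and 0.181, so that the groups meet at their edges, while for complement and antigen presentation F10N and F37N stand at 0.348 and 0.358 above the other APOE3 mice.

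Genes of synapses and excitability changed in both directions. Glutamatergic synapse and long-term potentiation genes, 54 of them measured, held 5 higher and 4 lower, with a median log2 fold change of 0.0703. The share called was 16.7%, beside 8.41% of all genes. Grin2b, an NMDA receptor subunit, was at 265.7, 258.1, 256.1, 235.0 and 245.5 CPM in APOE4D, against 194.9, 207.2, 171.7, 204.7 and 217.0 CPM in APOE3. All APOE4D mice were above all APOE3 mice (log2 fold change 0.34 ± 0.05 SE, adjusted p = 3.83e-05). The subunit Grin2a was also higher (log2 fold change 0.18), while Grin2d was lower (-0.31), as were the phosphatase inhibitor Ppp1r1a (-0.21), the calmodulin-binding postsynaptic protein Nrgn (-0.18) and the vesicular glutamate transporter Slc17a7 (-0.11). Without F61N 19 genes of the list were higher, while 1 was without F39N, 2 without F10N, 2 without F12M and 1 with 1 surrogate variable. With the trend over length and GC content removed, 5 were higher and 1 was lower. The calls of Grin2d, Ppp1r1a and Slc17a7 were lost in that fit.

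Potassium channels set the firing of neurons, and 9 of 46 measured were higher in APOE4D with none lower (19.6% called, median log2 fold change 0.032). Kcnh5, a voltage-gated channel of the ether-a-go-go family, was at 5.46, 5.16, 4.57, 3.99 and 3.82 CPM in APOE4D, against 3.01, 3.06, 3.06, 2.84 and 3.71 CPM in APOE3 (log2 fold change 0.55 ± 0.12 SE, adjusted p = 0.0034). The axonal channel subunit Kcna1 (0.44), the inward rectifiers Kcnj2 (0.36) and Kcnj3 (0.22), the calcium-activated channel Kcnma1 (0.18) and the M-current subunit Kcnq3 (0.15) were among the others. The number of higher channels was 13 without F61N, 1 without F39N, 2 without F10N, 2 without F12M and 1 with 1 surrogate variable. It was 5 with the trend over length and GC content removed, a fit in which Kcnma1 and Kcnq3 lost the call. Kcnh5 was past the threshold under each of 23 other settings, while Kcnj3, Kcnma1 and Kcnq3 each lost the call when F10N or F39N was left out.

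Of 29 measured genes of GABA synthesis, receptors and interneurons 3 were higher and 3 lower (20.7% called, beside 8.41% of all genes). Among the higher were the receptor subunit Gabra5 (log2 fold change 0.22) and the synthetic enzyme Gad2 (0.14), and lower were the interneuron peptide Cck (-0.30), the calcium buffer Pvalb (-0.26) and the receptor Gabbr2 (-0.11). Pvalb was at 55.3 to 69.8 CPM in APOE4D, against 70.7 to 84.4 CPM in APOE3. Of 41 measured genes of synaptic vesicles and release 4 were higher and 2 lower (14.6% called). The lower ones were Cplx1, a complexin that clamps fusion, and Sncb, beta-synuclein. Cplx1 was at 676.3 to 726.7 CPM in APOE4D, against 786.7 to 867.6 CPM in APOE3 (log2 fold change -0.21, adjusted p = 0.000122). With 1 surrogate variable no gene of either list was higher. With the trend over length and GC content removed, the GABA list held 3 higher and 2 lower genes. The vesicle list held 5 higher and 1 lower in that fit, and the call of Sncb was lost.

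In complement and antigen presentation each gene that passed the test was lower, with 9 of 31 measured lower and none higher (29.0% called, median log2 fold change -0.311). C1qa, a chain of the complement initiator C1q made by microglia, was at 54.4, 55.9, 61.04, 59.1 and 68.5 CPM in APOE4D, against 87.9, 79.7, 84.9, 61.4 and 87.3 CPM in APOE3. The APOE3 mouse F61N was within the APOE4D range and the other 4 APOE3 mice were above it (log2 fold change -0.43 ± 0.09 SE, adjusted p = 0.00549). C1qb, C1qc, the class I genes H2-D1 and H2-K1, the class II genes H2-Ab1 and H2-Eb1 and the immunoproteasome subunits Psmb8 and Psmb10 made up the rest, with log2 fold changes of -0.74 to -0.32. The number of lower genes was 14 without F61N, and it was 3 without F10N, 3 without F37N, 3 without both, 4 without F12M, 4 with the trend over length and GC content removed and 1 with 1 surrogate variable.

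Markers of the cells that could carry these genes were examined beside them. Of 27 measured microglial genes 1 was higher, the receptor Gpr34 (log2 fold change 0.27), and 1 lower, the signaling adaptor Tyrobp (-0.48), a share of 7.41%. Tyrobp was at 19.3 to 23.3 CPM in APOE4D, against 22.7 to 32.3 CPM in APOE3. None of 10 border macrophage genes passed, although the log2 fold changes of all 10 were below 0. Their median was -0.269, and -0.0631 without F10N and F37N. The lysosomal list, which holds several microglial proteases, had 1 of 53 genes higher, the proton pump subunit Atp6v1b2 (0.15), and 3 lower, the cathepsins Ctss (-0.26) and Ctsh (-0.29) and the pump subunit Atp6v1f (-0.17), a share of 7.55% beside 8.41% of all genes. The calls of Ctss, Ctsh and Atp6v1f were lost under 5, 16 and 7 of 23 settings. F10N and F37N had the highest values of the pericyte, smooth muscle and fibroblast list as well, with median deviations of 0.322 and 0.419, against -0.285 to 0.0883 in the APOE4D mice. The part of these cells in the complement result was not tested.

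Blood genes had the lowest median of any list, -0.907 over 13 measured, with 2 lower and none higher (15.4% called, beside 8.41% of all genes). Slc4a1, the anion exchanger of red cells, had 0 to 5 reads in the APOE4D libraries, against 11 to 49 in the APOE3 libraries (log2 fold change -3.03, adjusted p = 0.00064), with the most in F61N. S100a9, a neutrophil protein, was at 0.265 to 0.724 CPM in APOE4D, against 0.708 to 1.69 CPM in APOE3 (log2 fold change -1.53, adjusted p = 0.0464, a call lost without any 1 of several libraries, F61N among them). Hbb-bs, a hemoglobin chain, was at 49.9 to 146.3 CPM in APOE4D, against 101.5 to 272.5 CPM in APOE3, and did not pass (adjusted p = 0.0776). Endothelial cells had 1 of 16 markers lower, Bsg (-0.27), a share of 6.25%. Pericytes, smooth muscle and fibroblasts had 1 of 21 lower, Mgp (-0.64), and 1 higher, Pdgfra (0.20), a share of 9.52%. Pdgfra also marks oligodendrocyte precursors.

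Of 25 measured genes of cholesterol synthesis 1 was lower (4.0%, beside 8.41% of all genes), Mvd, which makes isopentenyl diphosphate, with 17.4 to 20.6 CPM in APOE4D against 21.5 to 24.7 CPM in APOE3 (log2 fold change -0.30, adjusted p = 0.00885). Of 27 measured APOE receptors and brain lipid carriers 1 was higher (3.7%), the very low density lipoprotein receptor Vldlr, at 81.4 to 87.3 CPM in APOE4D, against 68.5 to 80.2 CPM in APOE3 (log2 fold change 0.19, adjusted p = 0.00511). Glycolysis and the citric acid cycle had 1 of 35 genes higher, the dehydrogenase subunit Dld (0.17), and 1 lower, hexokinase Hk2 (-0.32), a share of 5.71%. Of the 31 genes of heat shock and the unfolded protein response, the transcription factor Atf4 (0.22) and its target Chac1 (0.34) were higher and Ddit3 (-0.28) was lower. That share, 9.68%, was near that of all genes. The proteasome had 4 of 33 genes lower (12.1%), led by Psma4 (-0.18). Jund (-0.52) was lower among 27 immediate early genes (3.7%), and neither the 18 clock genes nor the 15 myelin genes held any past the threshold. The calls of Mvd, Vldlr, Dld, Ddit3, Jund, the proteasome subunits Psmd3 and Psmb7 and the astrocyte marker Ntsr2 were lost with the trend over length and GC content removed.

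**Figure D5:**
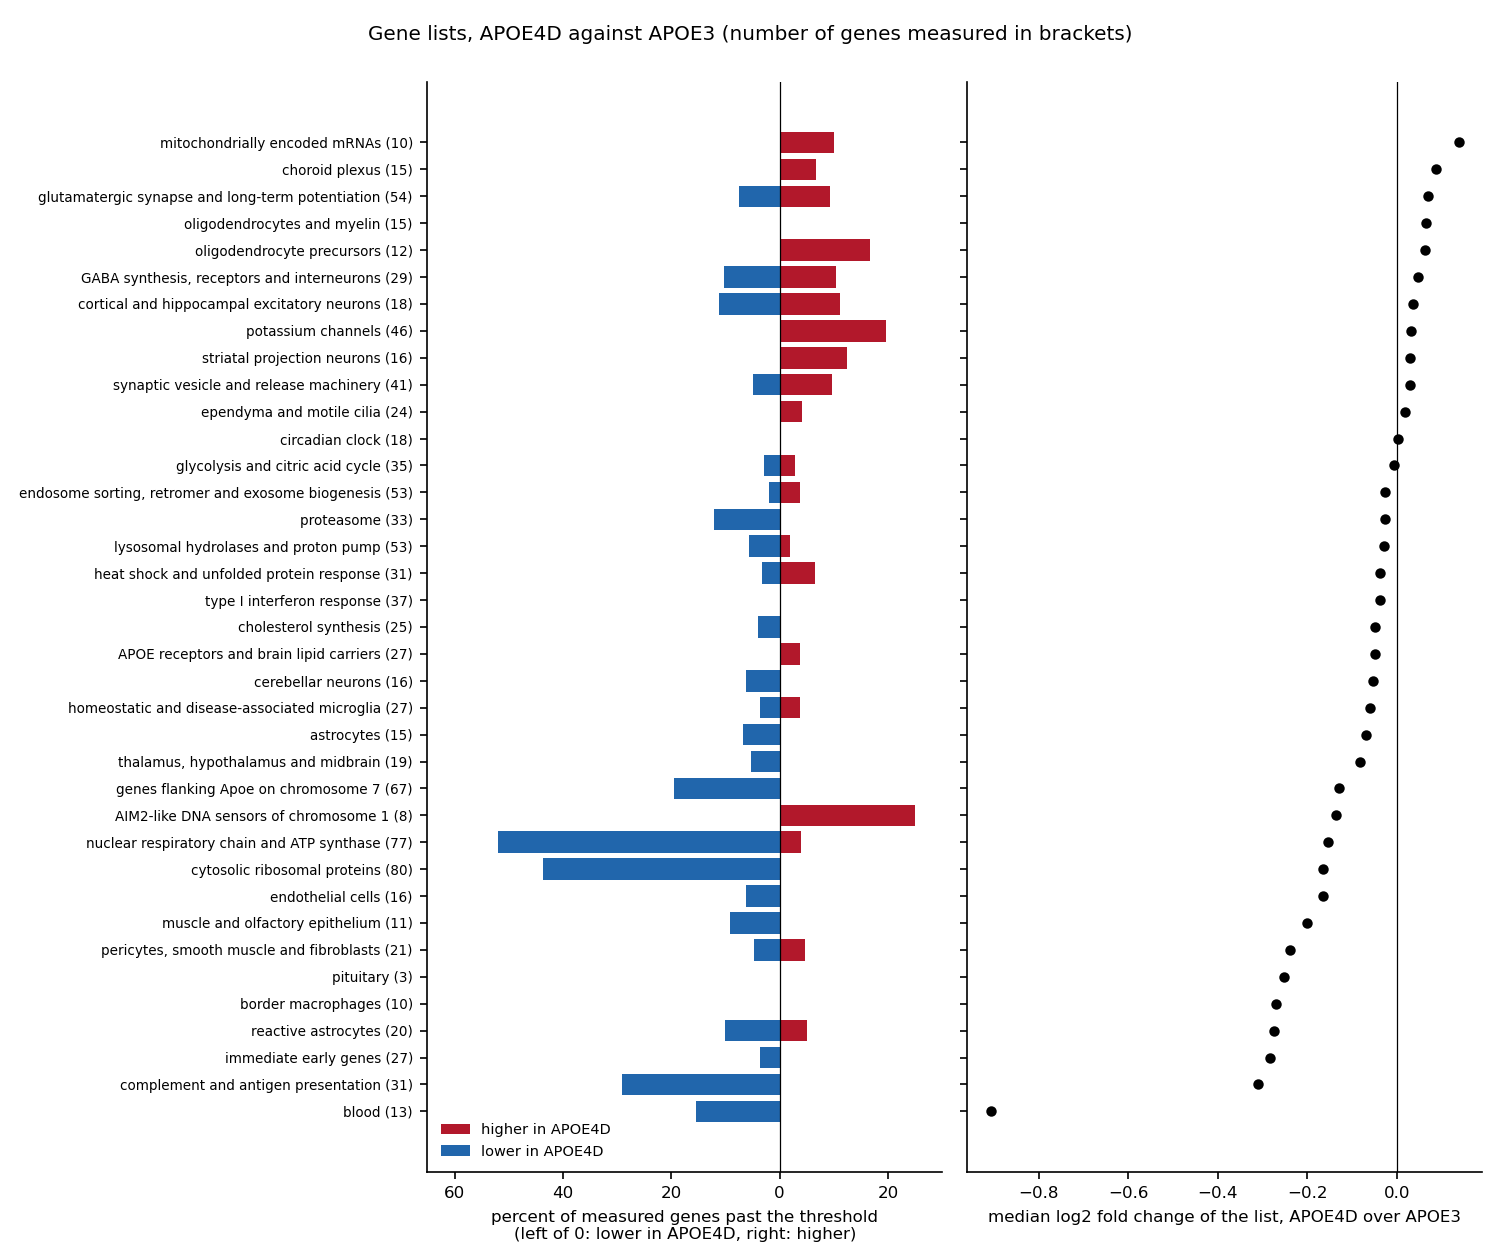
Left, percent of the measured genes of 37 lists that passed the threshold, lower in APOE4D to the left of 0 (blue) and higher to the right (red). Right, median log2 fold change of each list, APOE4D over APOE3. The respiratory chain and ribosomal lists hold the largest shares of lower genes (40 of 77 and 35 of 80), and the blood list has the lowest median (-0.907).

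How far the APOE4D mice resembled the other APOE4 mice was tested directly. No gene passed edgeR's quasi-likelihood test in APOE4D against APOE4 (0.0% of 21041), with 2292 genes at an unadjusted p under 0.05. DESeq2 called 34 genes and limma-voom 0. A p that misses the threshold does not show that the groups were alike. APOE4 against APOE3, a comparison with the same 5 APOE3 libraries, gave 4914 genes (23.4%).

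Values of named genes in both APOE4 groups are given side by side, since both were set against the same APOE3 mice. The log2 fold changes against APOE3 were 2.27 in APOE4D and 2.29 in APOE4 for Serpina3n, -1.28 and -1.22 for Wdfy1, 2.33 and 2.40 for Gpi-ps, 0.95 and 0.84 for Aim2, -1.12 and -0.88 for Avp, and 0.34 and 0.48 for Grin2b. Some genes past the threshold in APOE4D were not past it in APOE4, and their number was not counted. Among those named above were Hk2, Ctsh and Six5 (edgeR's quasi-likelihood test, adjusted p = 0.392, 0.373 and 0.0908 in APOE4 against APOE3). Those that follow were chosen after their values were seen. Glp1r, the receptor of glucagon-like peptide 1, was at 3.91 to 4.82 CPM in APOE4D, 4.92 to 5.93 CPM in APOE4 and 4.91 to 5.92 CPM in APOE3, with log2 fold changes against APOE3 of -0.33 (adjusted p = 0.0173) in APOE4D and 0.04 in APOE4. Dio3, which inactivates thyroid hormone, had log2 fold changes of -0.57 and -0.15, and Usp2, a deubiquitinase, had 0.23 and -0.05. The direct test of APOE4D against APOE4 was not past the threshold for Glp1r, Dio3 and Usp2 (adjusted p = 0.229, 0.336 and 0.229), so a difference between the APOE4 groups was not shown.

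APOE4 against APOE2 shares no library with APOE4D against APOE3, and its calls were set beside it. It gave 720 genes higher in APOE4 (3.42%) and 789 lower (3.75%). Of these, 235 were also higher in APOE4D than in APOE3, which is 32.6% of the 720 and 28.5% of the 825, and 261 were also lower, which is 33.1% of the 789 and 27.6% of the 944. In the opposite direction were 2 of the higher and 8 of the lower genes. Counted by library, 166 genes (0.789%) had all 10 APOE4D and APOE4 mice on 1 side of all 10 APOE3 and APOE2 mice, 80 higher and 86 lower. Of these, 158 passed the test in APOE4D against APOE3. That test uses libraries in which these genes were already separate, so the 158 are not independent agreement. Of all 1285 genes separate between APOE4D and APOE3, 895 passed.

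Some of these 166 genes were of high expression and small difference, and those given here were chosen after their values were seen. Ncald, the neuronal calcium sensor neurocalcin delta, was at 555.7 to 568.1 CPM in APOE4D, 544.2 to 564.8 CPM in APOE4, 451.6 to 469.2 CPM in APOE2 and 440.3 to 475.6 CPM in APOE3 (log2 fold change of APOE4D over APOE3 0.30 ± 0.03 SE, adjusted p = 6.16e-08). Mfn2, the mitofusin that joins outer mitochondrial membranes, was at 210.4 to 222.2 CPM in APOE4D, 206.3 to 217.4 CPM in APOE4, 163.9 to 183.0 CPM in APOE2 and 163.4 to 194.2 CPM in APOE3 (log2 fold change 0.26, adjusted p = 0.00015). Esyt2, a tether of the endoplasmic reticulum to the plasma membrane, had a log2 fold change of 0.51. Crb1, a polarity protein, is given as a gene of the 166 with low expression and a larger difference. It was at 1.80 to 2.72 CPM in APOE4D, against 0.654 to 0.976 CPM in APOE3 (log2 fold change 1.51).

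Against APOE2 the named genes fell into sets that differed in which group stood apart. Wdfy1, Gpi-ps, Rdh13, Aim2, Dnah6, Anxa4, Ighg2c, Sbsn, Dctd and Dmkn were past the threshold in APOE4D against APOE2 too (adjusted p of 4.76e-18 to 0.000103). Oscar, Tmc4, Thnsl1, Gm13306 and Gm13375 were not (adjusted p of 0.105 to 0.972), and at each of them the APOE2 mean was closer to the APOE4D mean than to the APOE3 mean. Gm13306, for example, was at a mean of 2.68 CPM in APOE4D (SD 1.24), of 3.53 CPM in APOE4 (SD 0.538), of 2.75 CPM in APOE2 (SD 0.588) and of 7.45 CPM in APOE3 (SD 1.76). Serpina3n, Ighm and Wnt5b also missed the threshold against APOE2 (adjusted p = 0.0533, 0.0594 and 0.158), with APOE2 means of 63.0, 32.8 and 2.48 CPM that lay between those of APOE4D (129.0, 21.0 and 1.90 CPM) and APOE3 (26.7, 41.0 and 3.27 CPM). For Oscar, Tmc4, Thnsl1, Gm13306 and Gm13375 the comparison with APOE3 alone does not separate a value of the APOE4 groups from one that APOE2 shares.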

How the data were processed

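Left hemi-brains were flash frozen, RNA was extracted with miRNeasy, and stranded mRNA libraries were read from 1 end. The values used are raw counts that the authors deposited for 55291 gene symbols. Per the submitters' processing notes, reads were aligned and counted with tools that include STAR 2.7.0 and featureCounts, on GRCm38 (mm10). The study's methods also give another pipeline, on a newer build and with covariates that these counts do not hold. The authors also deposited normalized counts and their own comparison tables of fold changes and p-values, which were not used.

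The analysis used edgeR 4.0.16 under R 4.3.3. Genes over 0.1 CPM in more than 40% of the 20 libraries entered the test, TMM scaled the libraries, and 1 fit of the 4 groups was tested with edgeR's quasi-likelihood test (robust, Benjamini-Hochberg adjustment over all genes, threshold 0.05). Single genes were compared with exact permutation tests (two-sided). The steps were tested on simulated data. Positions were matched for 39152 symbols. The members of the comparison and the 37 gene lists were chosen with earlier results of these data known, so the lists were described and not tested.

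Named genes were the 12 of each sign with the largest log2 fold change that passed the threshold, averaged a log2 CPM of 1 or more and did not overlap between groups, the 10 with the smallest p, up to 4 past the threshold per list with the smallest p, and Apoe with its neighbors Apoc1 and Tomm40, and genes linked to sex. No gene was past the threshold against both APOE3 and APOE4. Other genes named were chosen after their values were seen, also where a list's text gives members beyond its 4. List values per library are deviations of log2(CPM + 0.1). Alternatives used limma 3.58.1, DESeq2 1.42.0 and sva 3.50.0. Python 3.11.15 with matplotlib 3.10.9 drew the figures. A few genes are not reported here.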

Additional observations from a re-analysis of the deposited data

Results flagged for a closer look

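In 138 groups of 5 libraries, 1 library lay so far from the other 4 that its gap passed Dixon's 95% critical value of 0.71 in 8 cases, where chance gives about 1 in 20 groups. Gpi-ps was at 8.05 CPM in the APOE4D mouse FH68 and at 5.99 to 6.54 CPM in the other APOE4D mice. Rdh13 was at 33.1 CPM in the same mouse FH68 and at 28.8 to 30.02 CPM in the others. Tmc4 was at 2.76 CPM in the APOE3 mouse F64M and at 3.52 to 3.81 CPM in the other APOE3 mice. Ighm was at 67.5 CPM in the APOE3 mouse F10N and at 31.5 to 37.3 CPM in the others. Xist had 48 reads in the APOE3 mouse F61N and 14653 to 18008 in the others. Among gene lists, the mitochondrially encoded mRNAs had a median deviation of 0.197 in F61N and of -0.216 to -0.123 in the other APOE3 mice, and the cortical and hippocampal excitatory neurons one of -0.127 in the APOE3 mouse F39N and of -0.0153 to 0.0144 in the others. The microglial list had a median deviation of -0.143 in the APOE4D mouse F19M and of -0.0219 to 0.0121 in the other APOE4D mice.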

How the results depend on the processing

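The number of genes past the threshold in APOE4D against APOE3 was 1769, and 1621 with no filter, 1848 with edgeR's filterByExpr, 1807 with RLE size factors, 2428 with DESeq2, 1734 with limma-voom, 1272 with only these 2 groups fitted and 1228 with the series of the mouse IDs as a covariate (506 higher). It was 464 without the FH mice (158 higher, 306 lower, 83 at a fold of 1.5), 599 with 1 surrogate variable (234 higher, 365 lower, 109 at that fold) and 1267 with the trend over length and GC content removed (573 lower). Leaving out each library in turn gave 1022 to 3338 genes, 433 to 1801 higher, 539 to 1537 lower and 126 to 263 at a fold of 1.5. The highest counts were those without F61N (3338, with 1801 higher and 1537 lower). Without both F10N and F37N, a step chosen after seeing the data, 883 passed (315 higher, 568 lower, 122 at that fold). The cause of these shifts was not tested, except that fits without libraries had fewer samples. Of 113 named genes 99 were past the threshold, 40 of these under every alternative, and none of the 99 turned its sign. Prl, Tomm40 and Clock, which did not pass, took values of both signs. All APOE3 mice have IDs of the F series and 3 of the 5 APOE4D mice of the FH series, so the comparison without the FH mice rests on 2 APOE4D mice. No paired analysis was possible because the labels give mouse IDs and no replicate numbers that the groups share. Counts of a few reads limit the fold changes of low genes such as Ifi208.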

Other observations

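Within the APOE2 group some genes named above took separate levels in the same mice, and these values were noticed after the data were seen. F42N and FH124 had the lowest values of the group at Serpina3n (26.1 and 27.3 CPM, with 82.9 to 94.2 CPM in the other APOE2 mice), at Pon2, a paraoxonase (43.3 and 43.2 CPM, with 51.6 to 58.3 CPM in the others) and at Ica1, an islet autoantigen gene (29.6 and 29.2 CPM, with 38.8 to 47.3 CPM in the others). FH111 had the highest values of the group at Eps8l1 (2.71 CPM, with 0.465 to 0.697 CPM in the others), at Ptprh (1.17 CPM, with 0.210 to 0.442 CPM in the others) and at Gm15510 (1.36 CPM, with 0.257 to 0.465 CPM in the others), and its lowest at Rdh13 (45.0 CPM, with 57.9 to 63.9 CPM in the others). In APOE4D the mouse FH51 had the lowest Eps8l1, while its Ptprh (2.93 CPM) and Gm15510 (2.02 CPM) were within the range of the other 4 APOE4D mice.

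Pon2 and Ica1 lie on chromosome 6 and were lower in APOE4D than in APOE3 by log2 fold changes of -0.69 and -0.64 (edgeR's quasi-likelihood test, adjusted p = 2.54e-07 and 0.000213). Pon2 was at 38.3 to 41.9 CPM in APOE4D, against 61.1 to 74.3 CPM in APOE3, and Ica1 at 30.3 to 32.1 CPM in APOE4D, against 45.8 to 51.8 CPM in APOE3.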
